A study of Homo sapiens with 4 samples.

Results

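The set described here holds 50 interferon-stimulated and antigen presentation genes, chosen by name. RNA was measured on 4 whole-transcript microarrays of MM.1S and ARP-1, established human lines from myeloma, the malignancy of plasma cells. Each line gave 1 array under a lentiviral control hairpin (CTR-KO) and 1 under a hairpin against MIF (MIF-KO). All 4 cultures were sorted for the green marker of the lentivirus and grew in the same serum-containing medium, with no interferon named in the labels. A hairpin lowers a transcript and leaves the gene in place, so KO names a knockdown here. Nothing in the labels says whether the sorted cells were clones or whether separate cultures were used. The free-text descriptions of the ARP-1 arrays name the opposite condition to their titles and genotype labels, and the titles are followed.

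Of the 50 members, 34 have a named probe set and 16 are unnamed here, among 14884 genes named in all. Of the 38 type I interferon targets (effectors, regulators and RNA sensors) 29 are named, and of the 12 antigen presentation genes 5 are. Unnamed among the type I targets are IFI6, IFI27, MX1, OAS1, OAS2, OAS3, PARP9, PARP14 and STAT2, and among the antigen presentation genes TAP1, TAP2, NLRC5, HLA-B, HLA-C, HLA-E and HLA-F. No value is therefore given for a classical class I heavy chain.

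Type I interferons bind a receptor on the cell surface whose kinases activate transcription factors. STAT2 and IRF9 act in a complex that binds the interferon-stimulated response element (ISRE) in promoters and switches on antiviral effectors. Interferon also raises genes that cut peptides, carry them into the endoplasmic reticulum and load them onto class I molecules, which show them to T cells. In plasma cell tumours this display is part of how T cells recognise the malignant cell.

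RefSeq promoters (GRCh38.p14, 250 bases before to 50 after a gene's start) matched 41 members by symbol. The ISRE core (GAAA, any 2 bases, then GAAA), searched on both strands, was present in 29 of the 41 (70.7%), against 4.38% of all 27305 genes with a promoter. It was found in 22 of 31 type I targets (71.0%) and 7 of 10 antigen presentation genes (70.0%). The STAT element TTCNNNGAA, which reads the same on both strands, was present in 11 of the 41 (26.8%), against 9.38% of all. It was found in 10 of 31 type I targets (32.3%) and in 1 of 10 antigen presentation genes (10.0%), near the share of all genes. The motifs may overlap, and a match describes letters and is no shown binding site. The stretches below come from members described later, with the ISRE core in capitals (overlapping matches merge), except for IRF9, where the capitals mark the STAT element.
ISG15 (chr1:1013362-1013421, plus strand): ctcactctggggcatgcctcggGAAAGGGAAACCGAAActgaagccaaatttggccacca
IFIT1 (chr10:89392488-89392547, plus strand): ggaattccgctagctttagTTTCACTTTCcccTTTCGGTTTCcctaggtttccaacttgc
DDX60 (chr4:168318789-168318848, minus strand): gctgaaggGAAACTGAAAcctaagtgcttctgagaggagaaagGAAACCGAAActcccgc
B2M (chr15:44711351-44711410, plus strand): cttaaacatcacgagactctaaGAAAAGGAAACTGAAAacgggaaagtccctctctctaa
TAPBP (chr6:33314079-33314138, minus strand): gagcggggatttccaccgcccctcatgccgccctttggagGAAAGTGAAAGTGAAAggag
IRF9 (chr14:24161176-24161235, plus strand): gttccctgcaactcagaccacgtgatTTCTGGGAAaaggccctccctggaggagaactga
Of these 6 stretches, 5 hold 2 ISRE core matches each. No ISRE core was found in the windows of HCP5, HERC6 or IRF9, the members whose responses differed most between the lines.

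MIF, the gene the hairpin targets, was lower under MIF-KO in each line. Its intensity was 1092 on CTR-KO and 541 on MIF-KO in ARP-1, and 1012 and 405 in MM.1S. The log2 differences (MIF-KO minus CTR-KO, as throughout) were -1.01 and -1.32. Their mean was -1.17 (n = 2 lines, limma SE 0.29 with error pooled over genes, 95% interval -1.92 to -0.42). The limma adjusted p was 0.99995, so MIF itself did not pass the test. Over 7442 genes the control array of ARP-1 was the least like the rest. Its correlations with the other arrays were 0.932 (MIF-KO ARP-1), 0.932 (CTR-KO MM.1S) and 0.966 (MIF-KO MM.1S), and those among the other 3 ran from 0.964 to 0.977. The closest pair was MIF-KO ARP-1 with CTR-KO MM.1S, so arrays of a line were not the most alike, and 0 genes were 4-fold apart between the lines under both conditions. Most plasma cell markers were bright, with IRF4 at log2 11.8 to 12.1 and XBP1 at 9.86 to 10.4, but CD27 was at 3.75 to 4.04, while CD38 and SDC1 differed by -1.44 and -1.36 in ARP-1 and 0.46 and 0.48 in MM.1S. On all 4 arrays the B cell marker CD22, the T cell marker CD2, the myeloid markers CD14 and LYZ, the epithelial marker EPCAM and the stromal markers DCN and LUM lay below the median of all values, log2 3.72. Other markers were above it on every array: KRT18 (epithelial) at 7.33 to 7.67, KRT8 at 4.81 to 5.15, CD8A (T cell) at 5.09 to 5.70, CD4 at 4.13 to 4.35, PAX5 (B cell) at 4.42 to 4.67 and CSF1R (myeloid) at 4.22 to 4.57. The part of CTR-KO ARP-1, CD38 and SDC1 in the results below was not tested.

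**Figure D1:**
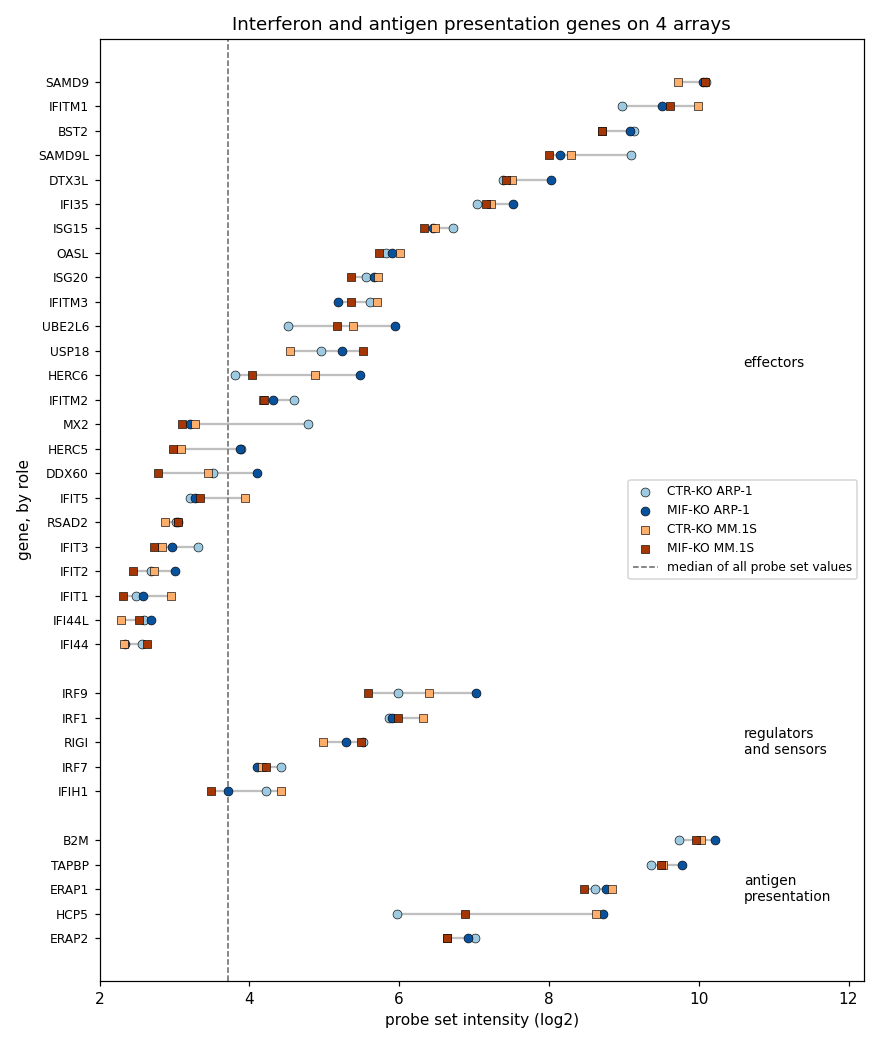
Probe set intensity (log2, horizontal axis) of the 34 named members, by role, on the 4 arrays; each point is 1 array, the grey line spans the 4, and the dashed line is the median of all probe set values, 3.72. HCP5 spans 5.96 to 8.72, and 6 effectors lie left of the dashed line on every array.

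The antiviral effectors ranged from dim to bright. Below the median of all probe set values on every array were 6 of 34 members (17.6%), against 27.7% of all named genes. They were the effectors IFI44, IFI44L, IFIT1, IFIT2, IFIT3 and RSAD2, so of the 24 named effectors the share was 25%, near that of all named genes. IFIT1, which binds viral RNA, had intensities of 5.59 (CTR-KO) and 5.96 (MIF-KO) for ARP-1 and 7.73 (CTR-KO) and 4.96 (MIF-KO) for MM.1S. All are below the median intensities of the arrays, which ran from 13.1 to 13.3, so a fold between such values is uncertain. Other effectors were bright on every array. The membrane proteins IFITM1 and BST2, which hinder virus entry and release, spanned 505 to 1014 and 416 to 562 in intensity, and SAMD9, a restriction factor of poxviruses, spanned 844 to 1097. ISG15, a ubiquitin-like modifier attached to proteins after interferon, was at 105 (CTR-KO ARP-1), 87.7 (MIF-KO ARP-1), 89.3 (CTR-KO MM.1S) and 80.5 (MIF-KO MM.1S). Intensities of different probe sets do not rank transcripts by abundance.

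No member passed the test of MIF-KO against CTR-KO over both lines. The model (limma, with cell line as a term, n = 2 arrays per condition) tested the 7442 genes in the upper part of the intensity range, 20 members among them, and the 14 other members were too dim to enter it. It called 0 members and 0 genes (0%) at an adjusted p below 0.05, and the lowest adjusted p over all genes was 0.99995. At an unadjusted p below 0.05 it had 1 member, USP18, and 29 genes (0.39%). For each gene, the disagreement of the lines gives 1 residual degree of freedom. The SEs, intervals and p-values also lean on error shared over the tested genes, which adds a median of 3.99 degrees of freedom. BST2, for example, differed by -0.05 (ARP-1) and -0.006 (MM.1S), yet its limma SE was 0.29. The p-values thus rest only on spread between these 4 samples, pooled in part over genes. In RNA of a whole culture, a change in the share of cells that express a gene and a change in RNA per cell cannot be told apart.

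USP18 had the smallest p of the members. It removes ISG15 from proteins and blocks the interferon receptor, which makes it a brake on the pathway. USP18 intensity was 30.9 (CTR-KO) and 37.7 (MIF-KO) for ARP-1 and 23.3 (CTR-KO) and 45.9 (MIF-KO) for MM.1S. Both MIF-KO arrays were above both CTR-KO arrays, so the conditions did not overlap. This was not particular to USP18. RSAD2 was also separated in this way, and ISG15, IFITM3, MX2, SAMD9L and IFIH1 were separated with MIF-KO lower. The share of all named genes separated in this way was not counted. The differences were 0.29 (ARP-1) and 0.97 (MM.1S), with a mean of 0.63 (limma SE 0.24, n = 2 lines, 95% interval 0.006 to 1.26). This SE and interval lean on the error shared over genes, not on the 2 lines alone, and so does the p. The limma unadjusted p was 0.0485. This p ranked 28 from the smallest among 7442. It also rests on the titles of the ARP-1 arrays. With those arrays exchanged as their descriptions name them, the ARP-1 difference of USP18 was -0.29 and the conditions overlapped. The mean was then 0.34 (limma adjusted p = 0.495).

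Within ARP-1, MIF-KO exceeded CTR-KO by at least 1.5-fold for 5 of 34 members (14.7%, against 7.34% of all named genes) and 2 were at least 1.5-fold lower (5.88%, against 7.3%). Within a line each condition has 1 array, so these differences have no replicate check and no test. The 5 higher members were HCP5, HERC6, UBE2L6, IRF9 and DTX3L. The 2 lower ones were MX2 and SAMD9L. At any size, 20 of 34 were higher (58.8%, against 48.5%).

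Within MM.1S, 7 of 34 members were at least 1.5-fold lower in MIF-KO (20.6%, against 2.36% of all named genes), and 1, USP18, was at least 1.5-fold higher (2.94%, against 3.41%). The 7 lower members were HCP5, IFIH1, HERC6, IRF9, DDX60, IFIT1 and IFIT5. At any size, 26 of 34 members were lower (76.5%, against 47.1%). MIF-KO MM.1S was the lowest of the 4 arrays for 15 members (44.1%), against 18.6% of all named genes, and the highest for 3 (8.82%, against 22.9%). Many of the 7 are dim: with 16 added to each value before the log, which damps dim genes, IRF9 and HCP5 were the only members at least 1.5-fold lower, 2 of 34, against 1.03% of all named genes.

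**Figure D2:**
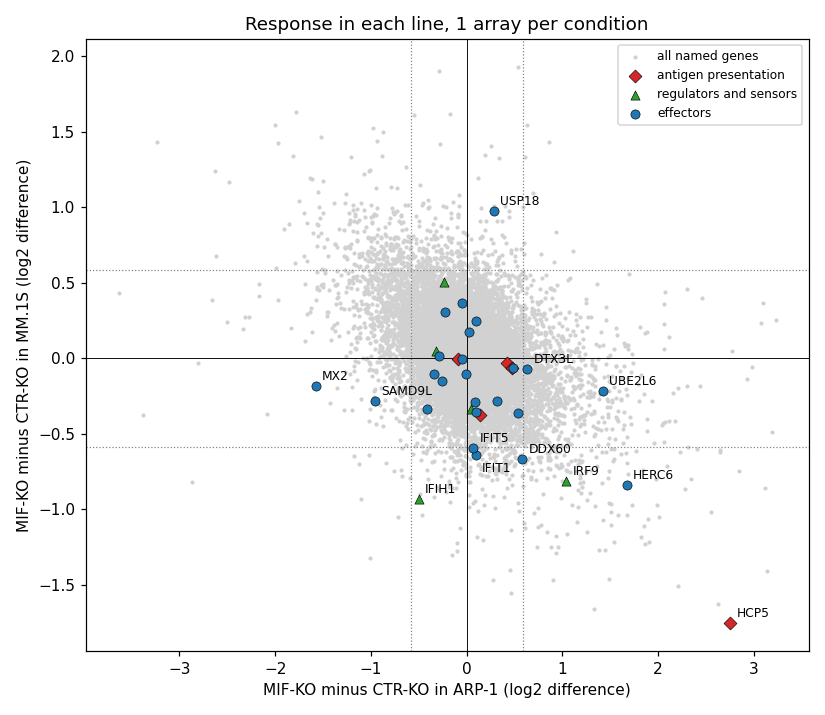
Log2 difference, MIF-KO minus CTR-KO, in ARP-1 (horizontal) and in MM.1S (vertical); grey points are all 14884 named genes, coloured points are the 34 named members by role, and dotted lines mark 1.5-fold. HCP5, HERC6 and IRF9 lie beyond 1.5-fold in both lines at the lower right, and USP18 alone of the members lies beyond the upper dotted line.

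The differences of the lines ran in opposite directions for several members. Higher in MIF-KO ARP-1 and lower in MIF-KO MM.1S, at any size, were 17 of 34 members (50%), against 27.8% of all named genes. At least 1.5-fold in opposite directions were 3 of 34, HCP5, HERC6 and IRF9 (8.82%, against 2.71%), all of them higher in ARP-1 and lower in MM.1S, as were 0.974% of all genes. No member was at least 1.5-fold apart in the same direction in both lines, as were 0.161% of all named genes. With 1 array per line and condition the difference between the responses could not be tested.

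Among the regulators, IRF9, the DNA-binding partner of STAT2, had the largest difference in ARP-1. IRF9 intensity was 63.2 (CTR-KO) and 130.1 (MIF-KO) for ARP-1 and 84.3 (CTR-KO) and 48.0 (MIF-KO) for MM.1S. The highest and the lowest value were thus both MIF-KO arrays, and the conditions overlapped. The differences were 1.04 (ARP-1) and -0.81 (MM.1S) (mean 0.12, SE 0.49, 95% interval -1.13 to 1.36).

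IFIH1 senses long double-stranded RNA and starts interferon production. IFIH1 was lower in MIF-KO of each line, with intensities of 18.6 and 13.1 in ARP-1 (CTR-KO, then MIF-KO) and 21.4 and 11.2 in MM.1S. Its MIF-KO values both lay below its CTR-KO values, with differences of -0.50 and -0.93, and it was too dim for the model. With the ARP-1 arrays exchanged as their descriptions name them, the ARP-1 difference of IFIH1 was 0.50, opposite to MM.1S. RIGI, another RNA sensor, differed by -0.24 (ARP-1) and 0.51 (MM.1S). IRF1 differed by 0.04 and -0.34 and IRF7 by -0.32 and 0.05. IRF1 and IRF7 are transcription factors that drive interferon and its targets. The 5 named regulators and sensors, STAT2 being unnamed here, had median differences of -0.24 (ARP-1) and -0.34 (MM.1S).

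The effectors with the largest positive differences in ARP-1 were HERC6 and UBE2L6. HERC6 is a relative of the ISG15 ligase HERC5, and UBE2L6 is the enzyme that carries ISG15 to its ligases. HERC6 intensity was 14.0 (CTR-KO) and 44.6 (MIF-KO) for ARP-1 and 29.4 (CTR-KO) and 16.4 (MIF-KO) for MM.1S, giving differences of 1.67 and -0.84. As for IRF9, MIF-KO ARP-1 was the highest array, while the lowest was CTR-KO ARP-1. UBE2L6 intensity was 22.9 (CTR-KO) and 61.3 (MIF-KO) for ARP-1 and 41.7 (CTR-KO) and 35.8 (MIF-KO) for MM.1S. Its differences were 1.42 and -0.22, and both MM.1S arrays lay between those of ARP-1 (mean 0.60, SE 0.42, 95% interval -0.47 to 1.67). ISG15 itself differed by -0.26 (ARP-1) and -0.15 (MM.1S), within 1.5-fold in each. HERC5, the main human ISG15 ligase, differed by -0.01 and -0.10.

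DTX3L, a ubiquitin ligase that works with PARP9, had intensities of 168 (CTR-KO) and 259.8 (MIF-KO) for ARP-1 and 181 (CTR-KO) and 173 (MIF-KO) for MM.1S. MIF-KO ARP-1 was the array apart, and the differences were 0.63 and -0.07 (mean 0.28, SE 0.34, 95% interval -0.58 to 1.14). DDX60, a helicase linked to RNA sensing, had intensities of 11.4 (CTR-KO ARP-1), 17.1 (MIF-KO ARP-1), 10.9 (CTR-KO MM.1S) and 6.85 (MIF-KO MM.1S). The differences of DDX60 were 0.58 in ARP-1, just inside 1.5-fold, and -0.67 in MM.1S. IFIT5, an RNA-binding relative of IFIT1, had intensities of 9.23, 9.70, 15.3 and 10.1 in the same order of arrays. CTR-KO MM.1S was the array apart for IFIT5, as it was for IFIT1, with MM.1S differences of -0.60 and -0.64 and ARP-1 differences of 0.07 and 0.09.

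MX2 and SAMD9L were the members lower in MIF-KO ARP-1. MX2, a relative of dynamin that blocks retroviruses and herpesviruses, had intensities of 27.6 (CTR-KO) and 9.25 (MIF-KO) for ARP-1 and 9.70 (CTR-KO) and 8.55 (MIF-KO) for MM.1S. Its difference of -1.58 in ARP-1 thus goes with CTR-KO ARP-1 alone, the other 3 arrays lying below the array medians, and in MM.1S it was -0.18. SAMD9L, which restrains translation and growth, had intensities of 548, 283, 313 and 257 in the same order. Again CTR-KO ARP-1 was the array apart, with differences of -0.95 and -0.28 (mean -0.62, SE 0.34, 95% interval -1.48 to 0.24). SAMD9L and its neighbour SAMD9 differed unlike each other, SAMD9 by -0.05 and 0.37.

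Antigen presentation genes were read from 5 members, all of them tested. HCP5, a non-coding RNA made from the class I region of the major histocompatibility complex, had the largest differences of all members. HCP5 (probe set 17027743) had intensities of 62.5 (CTR-KO) and 421 (MIF-KO) for ARP-1 and 397 (CTR-KO) and 118 (MIF-KO) for MM.1S. CTR-KO ARP-1 was lowest, MIF-KO MM.1S was next, and the other arrays were close to each other, so the conditions overlapped. The differences were 2.75 and -1.75 (mean 0.50, SE 1.05, 95% interval -2.20 to 3.20). The other named probe sets of HCP5 gave 3.82 and 3.58 in ARP-1 and -1.79 and -1.59 in MM.1S, in the same directions. All were read from the same arrays, so they are not independent. HCP5 is not a peptide-loading gene and its RNA gives no measure of class I protein.

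B2M, the light chain shared by all class I molecules, had intensities of 856 (CTR-KO) and 1186 (MIF-KO) for ARP-1 and 1045 (CTR-KO) and 999 (MIF-KO) for MM.1S. MIF-KO ARP-1 was highest and the 4 arrays lay close together. The differences of B2M were 0.47 and -0.06 (mean 0.20, SE 0.29, 95% interval -0.55 to 0.96), and its dimmer probe set gave 0.61 and -0.34. TAPBP, or tapasin, holds an empty class I molecule beside the peptide transporter, and it differed by 0.43 (ARP-1) and -0.03 (MM.1S) (mean 0.20, SE 0.30). The 5 probe sets of TAPBP gave differences from 0.41 to 0.43 in ARP-1, and from -0.06 to -0.0027 in MM.1S. They are not independent, since 2 of them hold identical values.

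The aminopeptidases ERAP1 and ERAP2, which trim peptides inside the endoplasmic reticulum, were within 1.5-fold in each line. ERAP1 differed by 0.14 (ARP-1) and -0.37 (MM.1S), and ERAP2 by -0.09 and -0.01. Of the 5 named antigen presentation genes, 4 were thus higher in MIF-KO ARP-1 (80%, against 55.2% of type I targets and 48.5% of all named genes). In MM.1S 5 of 5 were lower in MIF-KO, against 72.4% of type I targets and 47.1% of all named genes. This is a count of signs: B2M (-0.06), TAPBP (-0.03) and ERAP2 (-0.01) hardly differed, unlike HCP5 (-1.75) and ERAP1 (-0.37). HCP5 was the only one of the 5 past 1.5-fold in either line.

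**Figure D3:**
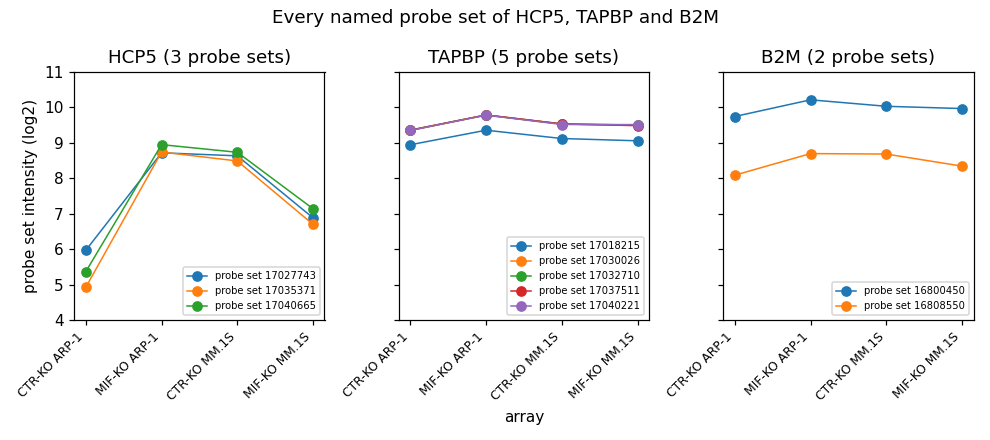
Probe set intensity (log2, vertical axis) on the 4 arrays (horizontal axis) for every named probe set of HCP5, TAPBP and B2M; each line joins the values of 1 probe set. The 3 HCP5 probe sets are lowest on CTR-KO ARP-1 and second lowest on MIF-KO MM.1S, and the 5 TAPBP probe sets follow each other.

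Set side by side, the medians of the classes lay further apart in ARP-1 than in MM.1S. In ARP-1 the median difference was 0.04 for the 29 type I targets and 0.43 for the 5 antigen presentation genes, against -0.01 for all named genes. Without HCP5 the antigen presentation median was 0.29. In MM.1S the medians were -0.18 and -0.06, against 0.02 for all named genes. Their order there depends on the probe sets: with the mean of a gene's probe sets in place of the brightest, they were -0.18 and -0.20. With 16 added before the log, the type I median in MM.1S was -0.08. Relative to each gene's mean over the arrays, the antigen presentation median was -0.19 (CTR-KO) and 0.23 (MIF-KO) for ARP-1 and 0.04 (CTR-KO) and -0.17 (MIF-KO) for MM.1S. For type I targets the same medians were 0.06, 0.04, -0.01 and -0.14, so MIF-KO MM.1S was the low array for these. Members are not replicates and their number per class is unequal, so no test compares the classes.

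**Figure D4:**
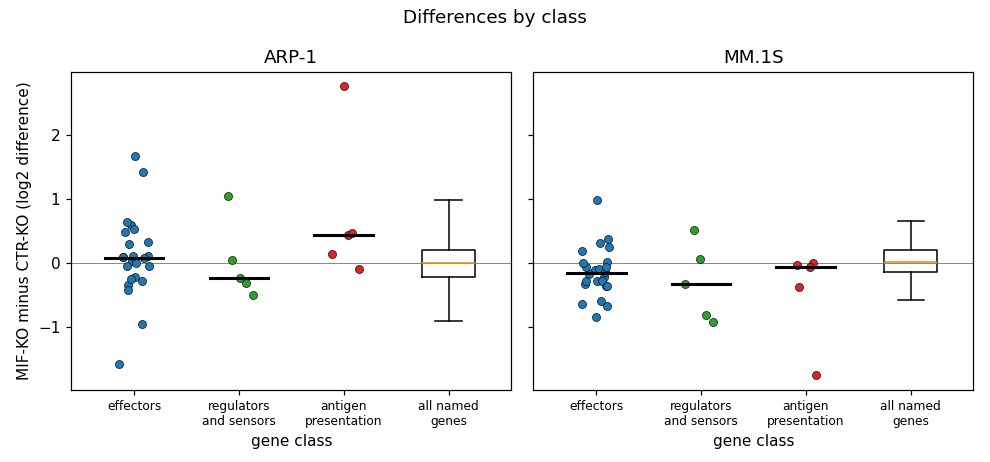
Log2 difference, MIF-KO minus CTR-KO (vertical axis), of the named members by class in ARP-1 and MM.1S; points are genes spread sideways at random, thick bars are class medians, and the box plot of all named genes has its quartiles, median and whiskers that span the central 95% of genes. The antigen presentation bar lies at 0.43 in ARP-1 and at -0.06 in MM.1S, and HCP5 is the outermost point in both panels.

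Members with and without an ISRE core overlapped in their differences, and no test compares them. In ARP-1 the differences of the 20 named members with a match ran from -0.50 to 0.63 (median 0.05), and those of the 8 named members whose windows had none ran from -0.95 to 2.75 (median 0.76). In MM.1S the ranges were -0.93 to 0.37 (median -0.10) and -1.75 to 0.51 (median -0.31). Lower in MIF-KO MM.1S were 16 of the 20 and 7 of the 8, against 47.1% of all named genes. The 8 are IFI35, SAMD9L, UBE2L6, HERC6, IRF1, IRF9, RIGI and HCP5, and B2M, TAPBP, ERAP1 and ERAP2 are among the 20. The named members USP18, IFIT2, IFITM2, MX2, OASL and IRF7 had no matched promoter and are in neither group.

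The other 22 named members were within 1.5-fold in both lines, with differences from -0.42 to 0.53 in ARP-1 and from -0.37 to 0.51 in MM.1S. Of these, 14 were tested, with SEs of the mean difference from 0.21 to 0.35. IFITM3, which traps viruses at the endosome, was lower in MIF-KO of each line, by 0.42 and 0.34 on the log2 scale (mean -0.38, SE 0.21, 95% interval -0.92 to 0.17).

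The lines themselves were then compared. The median difference of the 34 members, MM.1S minus ARP-1, was 0.06 under CTR-KO and -0.24 under MIF-KO, against -0.01 and 0.02 for all named genes. At least 1.5-fold lower in MM.1S under both conditions was 1 member (against 0.282% of all named genes), and at least 1.5-fold higher were 0 (against 0.322%). That member was HERC5, with intensities of 14.8 and 14.7 in ARP-1 and 8.50 and 7.92 in MM.1S, so the lines did not overlap while the conditions were nearly equal. Its MM.1S values lay below the array medians and it was too dim for the model, so this fold is uncertain. The limma model called 0 members and 0 genes (0%) between lines at an adjusted p below 0.05 (n = 2 arrays per line). At an unadjusted p below 0.05 there were 0 members and 87 genes (1.17%).

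Upstream of the members, 2 of 15 interferon ligands and receptors are named. The interferon gamma receptor chains IFNGR1 and IFNGR2 differed by 0.34 and 0.46 in ARP-1 and by -0.44 and 0.28 in MM.1S. In the signalling and induction list 18 of 24 genes are named, and limma called 0 of the 14 tested. Of the 18, 1 was at least 1.5-fold higher and 2 lower in ARP-1, against 7.34% and 7.3% of all named genes. None passed 1.5-fold in MM.1S, where 3.41% of all named genes were higher and 2.36% lower. The DNA sensor CGAS differed by -0.83 (ARP-1) and 0.31 (MM.1S), and STING1, the adaptor it signals through, by -0.64 and 0.26. SOCS1, an inhibitor of interferon kinases, differed by 0.65 and 0.20, and the kinase JAK1 by 0.56 and -0.28.

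Of 40 other interferon targets outside the set, 23 are named and 11 tested, with 0 called by limma. At least 1.5-fold higher were 3 of the 23 in ARP-1 and 0 in MM.1S, against 7.34% and 3.41% of all named genes. At least 1.5-fold lower were 0 in ARP-1 and 1, SP110, in MM.1S, against 7.3% and 2.36%. TRANK1 differed by 1.44 (ARP-1) and -0.42 (MM.1S), and SP110, a nuclear body protein, by 0.64 and -0.74. TRIM5, a restriction factor of retroviruses, differed by 0.59 and -0.36, and SP100, another nuclear body protein, by 0.56 and -0.37. The list's medians were 0.03 and -0.07. The chemokine genes CXCL9, CXCL10 and CXCL11, typical targets of interferon gamma, had log2 intensities from 2.46 to 2.96, below the median of all values.

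Of 17 other genes of class I antigen processing, 7 are named and tested, with 0 called by limma. In ARP-1 1 was at least 1.5-fold higher and 1 lower, against 7.34% and 7.3% of all named genes. TAPBPL, a tapasin relative that edits peptides, differed by 0.98 (ARP-1) and -0.30 (MM.1S). MICB, a stress ligand of natural killer cells, differed by -0.62 and 0.23, the peptidase TPP2 by -0.33 and 0.38, and SEC61A1, of the endoplasmic reticulum pore, by 0.23 and -0.42. The median of this list was -0.30 (ARP-1) and -0.04 (MM.1S), so in ARP-1 it lay below 0 where the antigen presentation members lay above it.

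The direction in ARP-1 rests on the titles of its arrays. With the ARP-1 arrays exchanged as their descriptions name them, limma called 401 of 7442 genes (5.39%) and 2 of 20 tested members (10%), HCP5 (mean -2.25, adjusted p = 0.0047) and IRF9 (mean -0.93, adjusted p = 0.026). Both were then lower in MIF-KO in both lines. Under that exchange MIF itself differed by 1.01 in ARP-1 and by a mean of -0.15.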

How the data were processed

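Linear intensities, as the authors deposited them, cover 53617 probe sets on 4 arrays. Per the submitters' processing notes, the tools include RMA and limma, without versions or roles. For the genome build, nothing is stated in these sources. A platform table names 1 symbol for 16098 of the probe sets and more than 1 for 0, which leaves 37519 unnamed here. All 16098 matched RefSeq by Entrez ID and 0 were renamed. Values were log2-transformed with no pseudocount, and each of 14884 genes was read from its brightest probe set by mean (779 had several). The test took genes whose mean reached the median gene mean, log2 4.97 (7442, 20 members). limma 3.58.1 (R 4.3.3) was fitted with line and condition, eBayes with a trend, and Benjamini-Hochberg adjustment over all tested genes; it was tested on simulated data. The pairing is the cell line of the labels; deviations of same-line arrays correlated at -0.373. Members, classes, motifs and lists were chosen with earlier results of these data known. Values on all arrays are given for members at least 1.5-fold apart in a line, or between lines under both conditions, and for B2M, TAP1, NLRC5, STAT2, IRF9, ISG15, IFIT1 and MX1 where named, with up to 4 genes per other list by size of difference; further genes were chosen after their values were seen. With no detection call or depth, the number of arrays limits the precision. Alternatives covered filter, cell line term, exchanged ARP-1 arrays, scaling, probe set choice, pseudocount, trend and each array left out.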

Additional observations from a re-analysis of the deposited data

Results flagged for a closer look

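HERC6, IRF9 and HCP5 differed in opposite directions in the lines, higher under MIF-KO in ARP-1 and lower in MM.1S. The difference between the responses, MM.1S minus ARP-1 on the log2 scale, was -2.51 for HERC6, -1.85 for IRF9 and -4.50 for HCP5. Each rests on 1 array per line and condition and on the titles of the ARP-1 arrays, and the difference was not tested. With the ARP-1 arrays exchanged, each of these genes was lower under MIF-KO in both lines. Of all named genes, 2.71% were at least 1.5-fold apart in opposite directions in the lines and 0.161% in the same direction.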

How the results depend on the processing

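Over the 9 alternatives with a fit, 0 genes were called between lines, and MIF-KO against CTR-KO stayed at 0 except with the ARP-1 arrays exchanged (401 genes). Without the cell line term (no replicate block) it was also 0. The exchange turned the antigen presentation median in ARP-1 to -0.43 and the ARP-1 differences to -2.75 (HCP5), -1.67 (HERC6), -1.42 (UBE2L6), -1.04 (IRF9), -0.63 (DTX3L), 0.95 (SAMD9L), 1.58 (MX2) and 1.01 (MIF), by construction. Means over both lines turned to -2.25 (HCP5), -0.93 (IRF9), -0.82 (UBE2L6), -0.35 (DTX3L) and 0.33 (SAMD9L). With each array left out in turn, the model has no residual degree of freedom and a mean becomes the difference of the other line: -1.75 to 2.75 (HCP5), -0.81 to 1.04 (IRF9), -0.22 to 1.42 (UBE2L6) and -0.069 to 0.63 (DTX3L). With 16 added before the log, type I targets at least 1.5-fold lower in MM.1S went from 6 to 1. Shifting arrays to 1 median left 20 members higher in ARP-1 and 27 lower in MM.1S, against 47.4% and 51.1% of all named genes. Quantile normalization left 21 and 27, against 49.3% and 50%.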

Other observations

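Class II antigen presentation, which shows peptides to helper T cells, was read from 3 named genes of 18 listed, all tested, with 0 called by limma. Cathepsin S, CTSS, which cuts the class II chaperone, had intensities of 248 (CTR-KO) and 557 (MIF-KO) for ARP-1 and 336 (CTR-KO) and 346 (MIF-KO) for MM.1S, with differences of 1.17 and 0.04. The subunits of the class II regulator RFX differed by -0.53 and -0.03 (RFXANK) and by 0.28 and 0.17 (RFXAP). The class II chains are unnamed here.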
